A study of Mus musculus with 1016 samples.

Results

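The genes described here encode proteins that start and carry DNA replication, namely the MCM subunits Mcm2, Mcm3, Mcm4, Mcm5, Mcm6 and Mcm7, the sliding clamp Pcna, and Rif1. They were chosen by name, 8 of 20753 protein-coding genes on chromosomes 1 to 19, and what was measured is when the DNA of each gene was copied within S phase, not how much RNA or protein it made. Single-cell Repli-seq reads replication from copy number: within 1 S-phase cell, copied DNA is present at a higher dose than uncopied DNA and yields more reads. In mouse preimplantation embryos it was used to follow the emergence of replication timing (RT) from the zygote to the inner cell mass (ICM), its parental origin, and its dependence on transcription and on a histone demethylase. For each cell the deposited tables hold a state, replicated or not replicated, for 49264 bins of 50 kb.

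In the licensing of an origin, the MCM subunits are loaded as a ring around double-stranded DNA, and after activation by Cdc45 and GINS this ring is the helicase that unwinds DNA at the fork. Pcna is the ring-shaped clamp that holds the DNA polymerases on their template and recruits factors for Okazaki fragment maturation and chromatin assembly. Rif1 binds late-replicating chromatin and brings protein phosphatase 1 to it, which counteracts the phosphorylation of MCM subunits by the Dbf4-dependent kinase Cdc7, and its loss disturbs the order of early and late replication in many cell types. Oocytes carry these proteins as a maternal store, so that the first cleavages do not await new transcripts.

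Embryos came from (C57BL/6J x CBA) F1 females mated to DBA/2J males. Of the 7 stages that follow natural mating, zygotes were collected at 20 to 26 h after the injection of chorionic gonadotropin (hCG), and 2-cell, 4-cell, 8-cell and 16-cell embryos at 32 to 40, 50 to 56, 66 to 72 and 77 to 80 h. Morulae were collected at 90 to 96 h and ICM cells at 96 to 104 h. Zygotes made by in vitro fertilization (IVF), from oocytes of (C57BL/6J x CBA) F1 females and DBA/2J sperm, were taken from 5.5 h after insemination on. Parthenotes, which are oocytes of (C57BL/6J x CBA) F1 females activated with 10 mM strontium and so have a maternal genome alone, were taken from 5.5 h after activation on, up to 12 h. Maternal pronuclei carried the (C57BL/6J x CBA) F1 genome and paternal pronuclei that of DBA/2J, both isolated at 21 to 25 h. The other groups were 2-cell embryos treated from 17 h after hCG with α-amanitin at 0.1 mg/ml (collected at 34 to 39 h), treated likewise with 100 µM DRB (34 to 40 h), or injected at 18 h with Kdm5b mRNA at 2 µg/µl (34 to 40 h). α-Amanitin blocks RNA polymerase II, DRB blocks its elongation, and KDM5B removes methyl groups from lysine 4 of histone H3.

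The cells used had a replication score, the percentage of called bins that were replicated, of 10 to 90%. There were 53 zygotes, 54 cells of 2-cell embryos, 50 of 4-cell, 49 of 8-cell and 34 of 16-cell embryos, 44 morula cells, 70 ICM cells, 56 IVF zygotes, 49 parthenotes, 20 maternal and 17 paternal pronuclei, and 42, 67 and 56 cells of the α-amanitin, DRB and Kdm5b groups. Each cell is a library of its own. The labels name no embryo or litter for a cell, so each group counts as 1 sample and no test was made between groups. Both pronuclei of a zygote were processed, but no source says that pronuclei with the same number came from 1 zygote. The share of cells with a gene replicated is given with its exact (Clopper-Pearson) 95% interval, which covers counting error alone. A share depends on how far the sampled cells had advanced through S phase, and mean replication scores ran from 40.8% in 4-cell embryos to 61% in IVF zygotes. Groups were therefore compared by RT: the share of cells that had copied the gene was taken in each of 16 overlapping windows of replication score and then averaged, so that 1 is earliest and 0 is latest. A gene with RT of at least 0.5 is called early, and a gene whose RT differed by at least 0.2 is called earlier or later. The cells of 8-cell embryos at 72 h (11 cells) and of 16-cell embryos at 77 h (5 cells) stood apart from the others of their stage, so results for these stages are given with and without them.

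The 8 genes lie on 6 different chromosomes, and no pair shares a bin. On GRCm38, Mcm3 (chr1:20802968-20820312) and Mcm6 (chr1:128331590-128359664) are on chromosome 1, Rif1 (chr2:52072832-52122383) and Pcna (chr2:132249162-132253314) on chromosome 2, Mcm7 (chr5:138164583-138172422) on chromosome 5, Mcm2 (chr6:88883474-88898780) on chromosome 6, Mcm5 (chr8:75109569-75128439) on chromosome 8 and Mcm4 (chr16:15623897-15637400) on chromosome 16. Rif1 and Mcm5 are on the plus strand and the others on the minus strand. Mcm6, Pcna and Rif1 each overlap 2 bins and the others 1 bin. Other genes that lie in these bins share the states of the bin by construction: Prkdc, which encodes the catalytic subunit of DNA-dependent protein kinase, with Mcm4, Hmox1 with Mcm5, Podxl2 with Mcm2, Lct and Dars with Mcm6, Tmem230 and Cds2 with Pcna, Tnfaip6 and Neb with Rif1, and 6 genes (Zfp113, Cops6, Ap4m1, Taf6, Cnpy4 and Mblac1) with Mcm7. The surroundings of Mcm7 are gene-rich, with 24 other protein-coding genes within 0.3 Mb of it against a median of 11 for all genes, while the other members have 5 to 8. GC content within 0.3 Mb ranged from 40.8% around Mcm4 to 47.8% around Mcm2, against a median of 44.4%. A called state was present at each gene in 657 to 661 of the 661 cells.

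E2F factors drive many replication genes at the entry into S phase, so the promoters of the set were searched for the letters these factors bind. Promoters from 250 bases before to 50 bases after the start (RefSeq, GRCm38.p6) were found for 6 of the 8 genes, with 2 promoters for Mcm7, and both strands were read for the 8-base words TTTCCCGC, TTTGGCGC, TTTCGCGC and TTTGCCGC, which can overlap each other. Mcm4 and Rif1 were not matched. A word was found for Mcm3, Mcm5, Mcm6 and 1 promoter of Mcm7, and not for Mcm2, Pcna or the other promoter of Mcm7, while 2.26% of all 32851 promoters held one. The stretches around the matches are shown 5′ to 3′ on the strand of the gene, with the words in capitals, because these letters are what 4 of the MCM genes have in common at their starts. For Mcm5 (chr8:75109330-75109393) and Mcm6 (chr1:128359778-128359841 and chr1:128359719-128359778) the words lie before the start. For Mcm7 1 word lies before the start (chr5:138172015-138172074) and 1 after it (chr5:138171859-138171868), and for Mcm3 (chr1:20820266-20820294) both lie within the first 50 transcribed bases.
Mcm5: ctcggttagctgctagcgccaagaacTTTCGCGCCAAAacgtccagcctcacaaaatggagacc
Mcm6, first stretch: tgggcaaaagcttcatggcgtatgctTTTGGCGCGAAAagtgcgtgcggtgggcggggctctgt
Mcm6, second stretch: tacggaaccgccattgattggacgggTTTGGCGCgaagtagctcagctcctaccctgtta
Mcm7, first stretch: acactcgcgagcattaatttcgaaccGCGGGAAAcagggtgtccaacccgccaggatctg
Mcm7, second stretch: gTTTCGCGCc
Mcm3: gGCGGGAAAacttgggaagtTTTGGCGCc
In Mcm5 and in the first stretch of Mcm6, words on opposite strands overlap and form a single run of capitals. A match describes letters only. The replication states resolve 50 kb, so they carry nothing about a single promoter, and the genes with a word include both Mcm6, early at all stages below, and Mcm3, Mcm5 and Mcm7, late at the first of them.

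By the cutoff of 0.5, the genes fell into 3 patterns at the 7 stages. Pcna, Mcm6 and Rif1 were early at every stage, and Mcm3, Mcm5 and Mcm7 were late up to the 4-cell stage. Mcm4 was late in 2-cell embryos alone (0.309). Mcm2 was late in 4-cell embryos, close to the cutoff (0.494), and in the ICM (0.465). Mcm3 and Mcm5 were early from the 8-cell stage on, and Mcm7 was early in 16-cell embryos and morulae and late again in the ICM. RT of 0.5 or more at all 7 stages was thus found for 3 of the 8 genes, and 42.7% of all genes have it. No member was late at all 7 stages. The share of all genes late at all 7 stages is not given. Neither this count nor that of the other replication genes late throughout is therefore read as a trait. Of 62 other replication genes, listed for origin licensing, helicase activation, MCM relatives, polymerases, clamp loading, fork protection, protein phosphatase 1 and nucleotide supply, 31 were early at all 7 stages and 1, the clamp loader subunit gene Rfc3, was late at all 7.

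**Figure D1:**
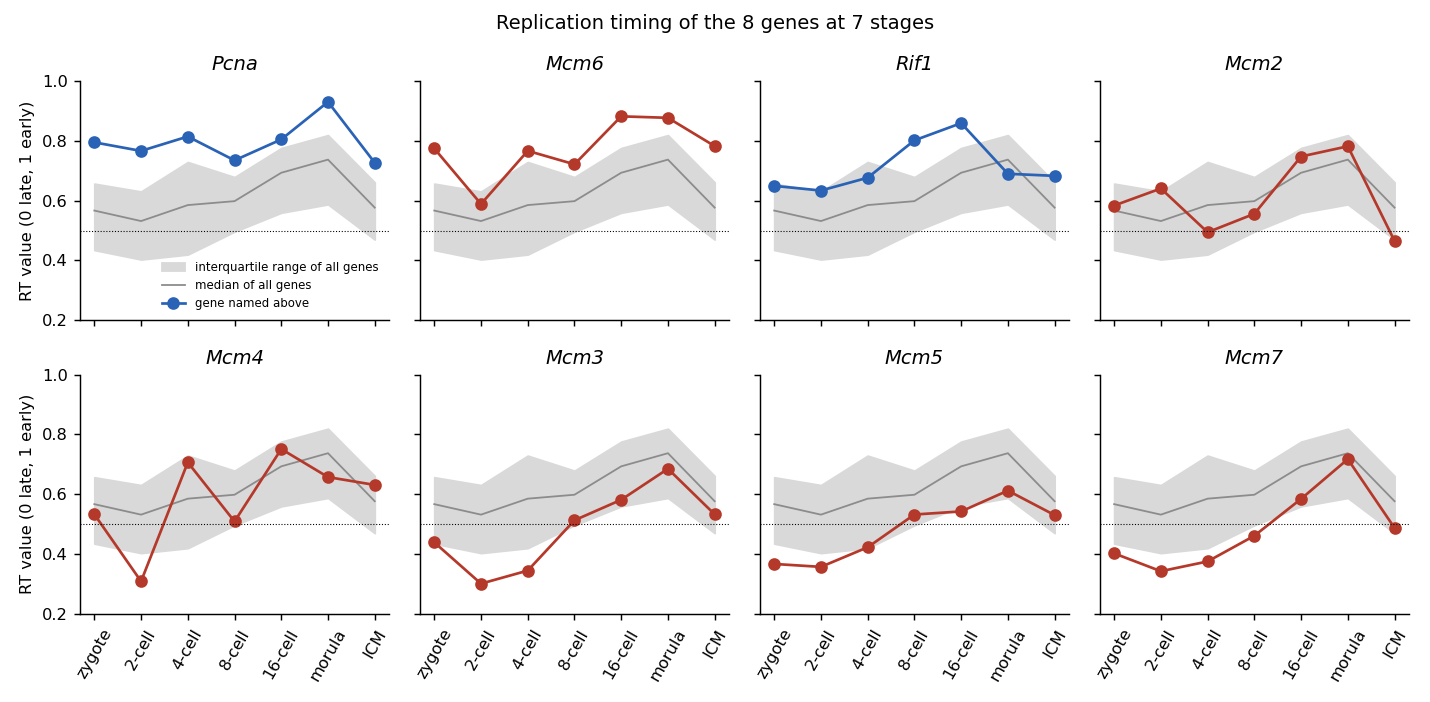
RT (vertical axis, 0 late to 1 early) of each of the 8 genes at the 7 stages (points), with the median (grey line) and interquartile range (grey band) of all protein-coding genes and a dotted line at 0.5. Pcna lies above the band at all 7 stages, whereas Mcm3, Mcm5 and Mcm7 lie near or below its lower edge up to the 4-cell stage and below the grey line at all stages.

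Pcna was the earliest of the 8 genes in zygotes, 2-cell and 4-cell embryos and morulae. It was replicated in 43 of 53 zygotes (81.1%, interval 68 to 90.6%), 41 of 54 2-cell cells (75.9%, 62.4 to 86.5%) and 41 of 50 4-cell cells (82%, 68.6 to 91.4%). At later stages the shares were 73.5% in 8-cell, 85.3% in 16-cell, 95.5% in morula and 75.7% in ICM cells. Its RT was 0.795, 0.766, 0.814, 0.735, 0.805, 0.930 and 0.727 from zygote to ICM, which placed it between the 83.6 and 98.3 percentile of all genes at each stage. Even among 2-cell cells with a score of 10 to 40%, Pcna had been copied in 9 of 16.

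Mcm6 had RT of 0.774 in zygotes, 0.589 in 2-cell, 0.767 in 4-cell, 0.721 in 8-cell and 0.882 in 16-cell embryos, 0.877 in morulae and 0.782 in the ICM. The 2-cell value was the low point, with 32 of 54 cells replicated (59.3%, 45 to 72.4%) against 42 of 53 zygotes (79.2%, 65.9 to 89.2%). The difference in RT of −0.186 was short of 0.2, and the intervals of the shares overlap. In the ICM, Mcm6 was the earliest of the 8 genes, in the 98.1 percentile of all genes, with 57 of 70 cells replicated (81.4%, 70.3 to 89.7%).

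Rif1 was above the median gene from zygote to 16-cell stage and in the ICM, but not in morulae. Its RT was 0.649, 0.634 and 0.677 in zygotes, 2-cell and 4-cell embryos, 0.802 and 0.859 in 8-cell and 16-cell embryos, and 0.690 and 0.683 in morulae and the ICM. In morulae, where the median gene stood at 0.737, Rif1 was replicated in 34 of 44 cells (77.3%, 62.2 to 88.5%) and lay in the 40.2 percentile. It had been copied in 31 of 34 16-cell cells (91.2%, 76.3 to 98.1%), so the intervals overlap. The difference of −0.169 in RT was among the lowest 2.35% of all genes in this step.

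Mcm3, Mcm5 and Mcm7, whose products are subunits of the same ring, stayed below the median gene at all 7 stages. Mcm3 was replicated in 26 of 53 zygotes (49.1%, 35.1 to 63.2%), 15 of 54 2-cell cells (27.8%, 16.5 to 41.6%), 12 of 50 4-cell cells (24%, 13.1 to 38.2%) and 25 of 49 8-cell cells (51%, 36.3 to 65.6%), and then in 67.6% of 16-cell, 72.7% of morula and 58.6% of ICM cells. Its RT was lowest in 2-cell embryos at 0.301 and highest in morulae at 0.685. The morula share of Mcm3 (57.2 to 85%) lies wholly above that of 2-cell embryos.

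Mcm5 had RT of 0.367, 0.357 and 0.423 up to the 4-cell stage, 0.532 and 0.542 in 8-cell and 16-cell embryos, 0.612 in morulae and 0.530 in the ICM. Among zygotes with a score of 10 to 40% it had been copied in 0 of 12, which allows a share of up to 26.5%. Mcm7 had RT of 0.402, 0.342, 0.375 and 0.461 from zygote to 8-cell embryos, 0.584 and 0.717 in 16-cell embryos and morulae, and 0.487 in the ICM. It was the only member that was late in 8-cell embryos, but without the cells of 72 h Mcm4 was late as well (0.495, with Mcm7 at 0.491). Its shares were 31.5% (19.5 to 45.6%) in 2-cell embryos and 75% (59.7 to 86.8%) in morulae, which do not overlap.

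Mcm4 spread most over the 7 stages, by 0.443 between its lowest and highest RT. It was replicated in 28 of 53 zygotes (52.8%, 38.6 to 66.7%), 16 of 54 2-cell cells (29.6%, 18 to 43.6%) and 33 of 50 4-cell cells (66%, 51.2 to 78.8%), with RT of 0.533, 0.309 and 0.707. The rise of 0.398 from 2-cell to 4-cell embryos exceeded that of 99.6% of all genes, and the intervals of the shares do not overlap. In 8-cell embryos Mcm4 was at 0.509 and in 16-cell embryos at 0.751. From 2-cell to 4-cell embryos Mcm2 ran the other way, with RT of 0.641 and 0.494. Its difference of −0.146 was too small to be called later, and the intervals of the shares overlap. From 8-cell to 16-cell embryos RT of both genes rose, by 0.192 for Mcm2 and 0.242 for Mcm4. Mcm2 reached 0.782 in morulae and then fell to 0.465 in the ICM, where it was the latest of the 8 genes.

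**Figure D2:**
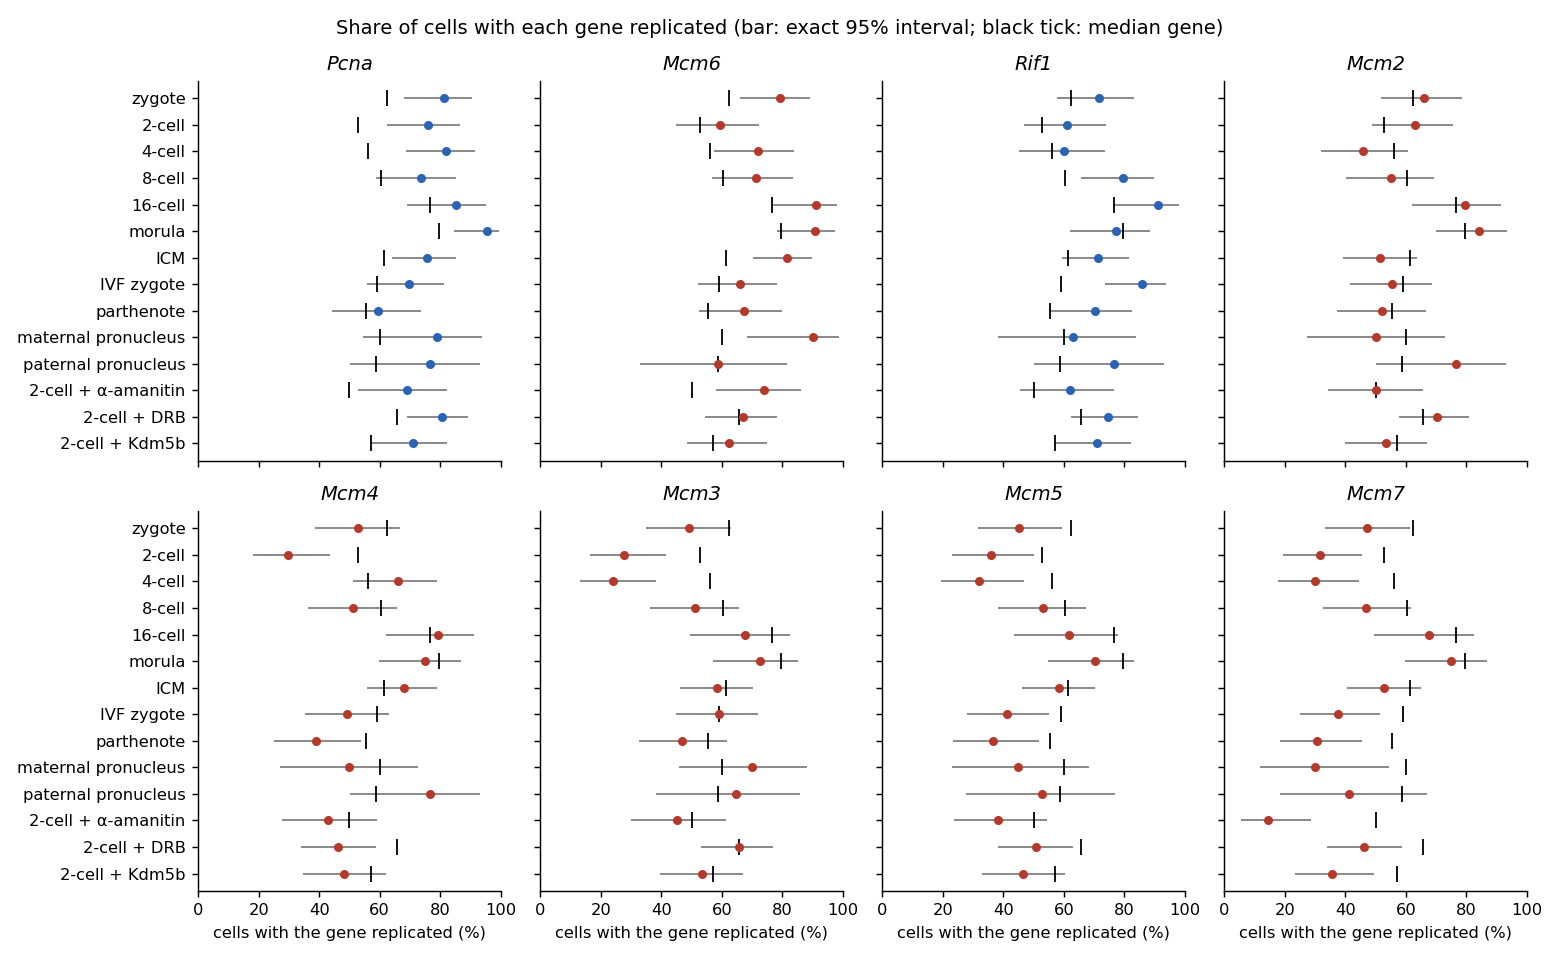
Percentage of cells with each gene replicated (points, horizontal axis) in the 14 groups (vertical axis), with the exact 95% interval (grey bars) and the share of the median gene (black ticks). Intervals of Mcm3, Mcm5 and Mcm7 lie below the tick in 2-cell and 4-cell embryos, and those of Pcna lie above it from zygote to 4-cell embryos.

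When the 8 genes were ordered by RT within a stage, the share intervals of all 7 neighbours in that order overlapped at every stage. Only pairs farther apart in the order had intervals that did not overlap. Both genes of a pair were read in the same cells, and separate intervals leave this out. An overlap therefore does not show that 2 genes were alike. The counts of pairs also depend on the number of cells, and none are given for pairs of other genes. Of 28 pairs, 7 did not overlap in zygotes, 12 in 2-cell and 12 in 4-cell embryos, 3 in 8-cell embryos, 0 in 16-cell embryos, 1 in morulae and 5 in the ICM. Without the cells of 72 and 77 h these were 0 in 8-cell embryos and 3 in 16-cell embryos, where Rif1, Mcm6 and Pcna each lay above Mcm5. The span of RT between the earliest and latest member was 0.470 in 4-cell, 0.341 in 8-cell and 0.339 in 16-cell embryos and 0.318 in morulae, and without those cells it was 0.290 in 8-cell and 0.488 in 16-cell embryos. In 2-cell embryos Pcna, Mcm2, Rif1 and Mcm6 were early and Mcm5, Mcm7, Mcm4 and Mcm3 late, and the intervals of all 4 early genes lay above those of Mcm3 and Mcm4.

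In single cells the states of 2 genes can be set side by side. The difference between the 2 one-sided counts follows from the shares given above, so it is no further evidence of the order. Among 54 2-cell cells, Pcna had been copied and Mcm3 had not in 30, and the reverse held in 4. Among 44 morula cells these numbers were 11 and 1, with both copied in 31. Of 2 late genes in the same 2-cell cells, Mcm3 alone was copied in 11 cells, Mcm7 alone in 13 and both in 4, whereas neither had been copied in 26.

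Counts of complete sets were taken in cells of late S phase, with a score of 60 to 90% and a call at all 8 genes. All 8 genes had been copied in 4 of 24 zygotes, 0 of 11 2-cell cells and 2 of 8 4-cell cells, and in 12 of 16 8-cell, 11 of 15 16-cell, 17 of 24 morula and 14 of 27 ICM cells. In cells with a score of 10 to 40% the median number of genes copied was 3 of 8 in zygotes, 2.5 in 2-cell, 3 in 4-cell, 2 in 8-cell and 4 in 16-cell embryos, 3.5 in morulae and 3 in the ICM. The 0 of 11 allows a share of up to 28.5%. Late-S cells of 2-cell and 4-cell embryos are few, and scores within this class were not matched between stages. RT of the median gene also rose, from 0.532 in 2-cell embryos to 0.737 in morulae. No other set of genes is given beside these counts, so they are not read as a trait of the members.

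**Figure D3:**
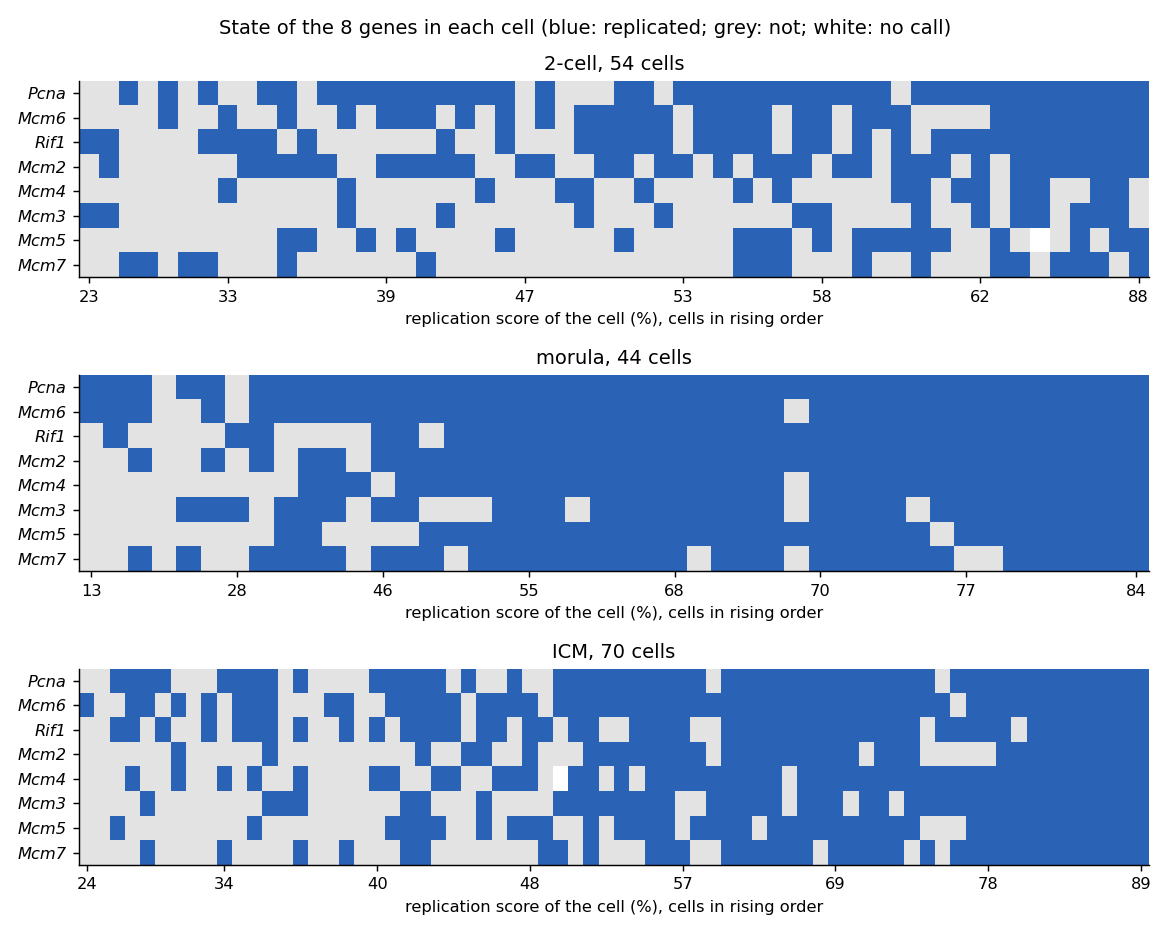
State of the 8 genes (rows) in every cell (columns, in rising order of replication score) of 2-cell embryos, morulae and the ICM, with replicated genes in blue, genes not replicated in grey and missing calls in white. In morulae the columns above a score of about 50% are nearly all blue, while in 2-cell embryos grey boxes of Mcm4, Mcm3, Mcm5 and Mcm7 reach to or near the right end.

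Step by step, few members passed a difference of 0.2. From zygote to 2-cell embryos, 1 member was later (Mcm4, −0.224) where 3.57% of all genes were, and 0 were earlier where 0.828% were. From 2-cell to 4-cell embryos, 1 was earlier (Mcm4) with 17% of all genes, and 0 later with 3.77%. From 4-cell to 8-cell embryos no member passed in either direction, with 6.24% of all genes earlier and 5.32% later, and Mcm4 lay just short of it at −0.198. From 8-cell to 16-cell embryos 1 was earlier (Mcm4, 0.242) with 9.8% of all genes, and 0 later with 0.702%. From 16-cell embryos to morulae none passed, with 3.51% of all genes earlier and 1.1% later. With 8 genes a single call is a coarse unit beside these background shares, and nothing is read from the counts about the set.

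From morula to ICM, all 8 genes moved to lower RT, by a median of −0.124 over the members and −0.146 over all genes. The members later by 0.2 or more were Mcm2 (−0.317), Mcm7 (−0.230) and Pcna (−0.203), 3 of 8 where 33.5% of all genes were, and 0 were earlier where 2.86% were. Mcm2 was copied in 37 of 44 morula cells (84.1%, 69.9 to 93.4%) and 36 of 70 ICM cells (51.4%, 39.2 to 63.6%), which do not overlap. The 2 ICM collections had mean scores of 60.6 and 50.2%. RT of Mcm2 was 0.459 in the 33 cells of 96 to 100 h and 0.457 in the 37 cells collected later, whereas that of Pcna was 0.830 and 0.678. With the earlier collection alone Pcna was thus not 0.2 later than in morulae. Mcm4 was replicated in 26 of 32 of the earlier cells (81.2%) and 21 of 37 of the later ones (56.8%).

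Between 2-cell embryos and morulae all 8 genes moved to higher RT. The median over the members was 0.272, against 0.190 over all genes, so the typical gene also had higher RT in morulae. Members earlier by 0.2 or more were Mcm3 (0.384), Mcm7 (0.375), Mcm4 (0.349), Mcm6 (0.288) and Mcm5 (0.255), which is 5 of 8 where 47.2% of all genes were, and 0 were later where 3.64% were. The share intervals of these 5 genes do not overlap between both stages. The share of all genes for which this holds is not given, so it is not read as a trait of the members. The share of the median gene also rose, from 52.8 to 79.5%, and the mean score from 49.3 to 57.1%. Pcna was higher by 0.164, Mcm2 by 0.141 and Rif1 by 0.0561, all short of 0.2. Of the 62 other replication genes 43 were earlier and 0 later, led by Pold1, the catalytic subunit of polymerase δ, which went from 0.204 to 0.670. The lowest difference of that list was −0.0349, for the GINS subunit gene Gins4.

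**Figure D4:**
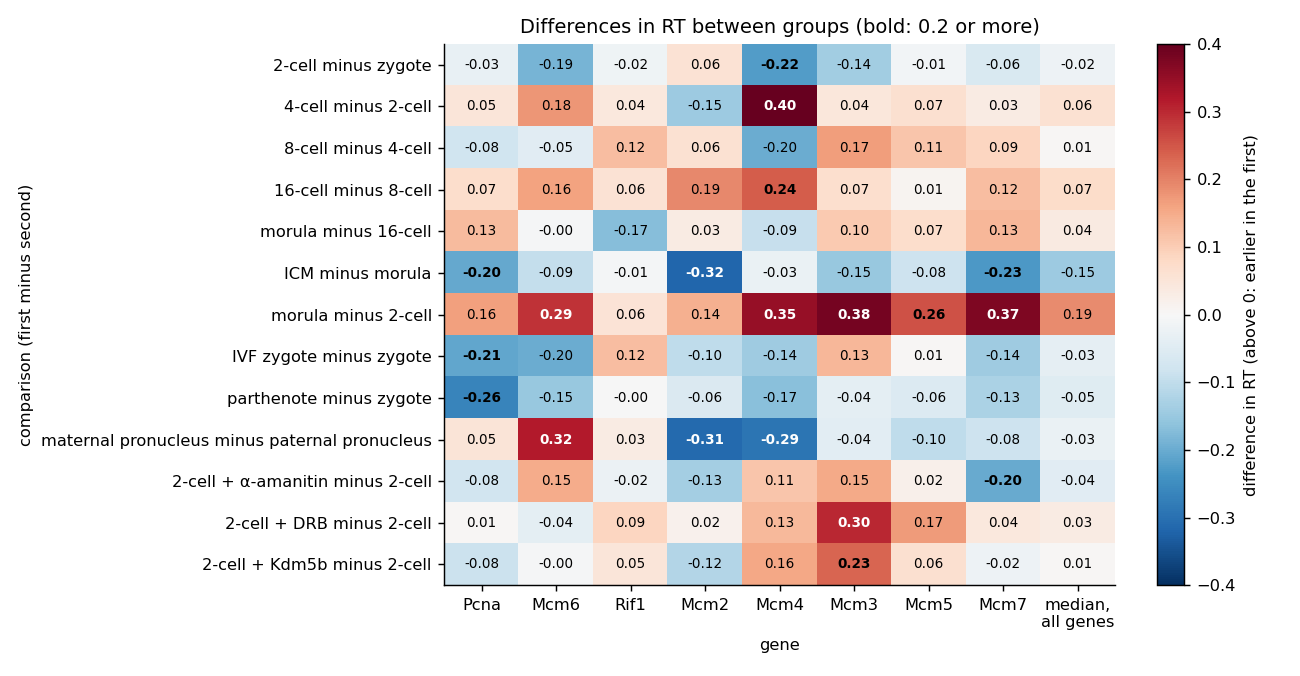
Difference in RT of each gene (columns) in the 13 comparisons (rows), as the first group minus the second, with the median of all protein-coding genes in the last column. Red is earlier in the first group and blue later, and differences of 0.2 or more are in bold. The row of morulae against 2-cell embryos holds 5 such values, and no other row holds more than 3.

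For the other replication genes the counts differed from step to step. Of the 62, 20 were earlier and 0 later in 4-cell than in 2-cell embryos, where 17% and 3.77% of all genes were, and the largest rise was that of Ppp1cc, a catalytic subunit of protein phosphatase 1, from 0.425 to 0.823. The lowest difference was −0.146, for Chaf1b of the chromatin assembly factor. From 4-cell to 8-cell embryos 2 were earlier and 7 later, where 6.24% and 5.32% of all genes were. The median difference was −0.0435, against 0.0738 over the members and 0.00538 over all genes. From morula to ICM, 23 were later and 0 earlier, where 33.5% and 2.86% of all genes were, with Cdt1, which loads the MCM ring together with Cdc6, going from 0.768 to 0.361. The highest difference there was 0.0769, for Orc4. The median RT of the list was 0.588 in zygotes, 0.541 in 2-cell embryos, 0.786 in morulae and 0.614 in the ICM. At these stages 45, 38, 61 and 46 of the 62 genes were early, where 64.4, 57.3, 82.2 and 68.2% of all genes were.

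The cells of 72 and 77 h bear on the 16-cell values in particular. In the 5 cells of 77 h, which had a mean score of 37.3%, Mcm6 and Rif1 were each copied in 2, Pcna in 1 and Mcm7 in 0 (which allows a share of up to 52.2%), and in the 29 cells of 80 h, with a mean score of 60.6%, Mcm6 and Rif1 were each copied in 29 and Pcna in 28. Without the cells of 72 and 77 h, RT in 16-cell embryos was 1.00 for Mcm6 and Rif1 and 0.973 for Pcna. The number of members earlier in 16-cell than in 8-cell embryos rose from 1 to 5, and the median difference from 0.0967 to 0.220. Without those cells 1 member, Rif1, was later in morulae than in 16-cell embryos. No share over all genes is given for this smaller set of cells, so these counts are not read as a trait of the members. In the 11 8-cell cells of 72 h, Mcm2 was copied in 2 and Mcm3 in 3, against 25 and 22 of the other 38 8-cell cells. Mean scores were 42.9% in the cells of 72 h and 52.6% in the other 8-cell cells. In the cells of 72 h RT was 0.314 for Mcm2 and 0.864 for Pcna, against 0.648 and 0.685 in the others. The share intervals of the 8-cell collections overlap for Mcm2 (2.3 to 51.8% and 48.6 to 80.4%) and for Pcna (48.2 to 97.7% and 54.1 to 84.6%). For the cells of 72 and 77 h, the part of collection hour apart from progress through S phase was not tested.

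In IVF zygotes Rif1, Pcna, Mcm6 and Mcm3 were early, and after natural mating Pcna, Mcm6, Rif1, Mcm2 and Mcm4 were. In IVF zygotes RT of Pcna was 0.588 and that of Mcm6 was 0.575, against 0.795 and 0.774 after natural mating. Pcna was the member later by 0.2 or more (−0.207, but −0.115 with raw shares), 1 of 8 where 9.59% of all genes were, and Mcm6 lay just short of it (−0.199). None was earlier, where 1.98% of all genes were. The shares of Pcna were 69.6% (55.9 to 81.2%) and 81.1%, and their intervals overlap. Rif1 was the earliest member in IVF zygotes, copied in 48 of 56 (85.7%, 73.8 to 93.6%), with RT of 0.773. In this comparison 0 of the 62 other replication genes were earlier and 6 later, from 0.174 for Mcm10 to −0.341 for Ppp1cc.

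In parthenotes all 8 genes had lower RT than in zygotes, by a median of −0.0925 against −0.0477 over all genes. Pcna was later (−0.264, RT of 0.531), 1 of 8 where 7% of all genes were, and 0 were earlier where 2.5% were. Its difference was among the lowest 1.87% of all genes. It was copied in 28 of 47 parthenotes (59.6%, 44.3 to 73.6%) against 43 of 53 zygotes, and the intervals overlap. Mcm7 was the latest member in both IVF zygotes (0.259) and parthenotes (0.276). IVF zygotes and parthenotes were both set against the same zygotes, so these 2 differences of Pcna are not independent of each other. Of the 62 other replication genes, 1 was earlier in parthenotes (Orc5, 0.258) and 1 later (Rrm1, of ribonucleotide reductase, −0.239).

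In isolated pronuclei the maternal genome was earlier at Mcm6 and later at Mcm2 and Mcm4. Mcm6 was copied in 18 of 20 maternal (90%, 68.3 to 98.8%) and 10 of 17 paternal pronuclei (58.8%, 32.9 to 81.6%), with RT of 0.918 and 0.601, a difference of 0.317 that was 0.183 with scores of 20 to 80% alone. Mcm2 was copied in 10 of 20 and 13 of 17, with RT of 0.485 and 0.796, and Mcm4 in the same numbers, with RT of 0.377 and 0.669. The maternal pronuclei were thus earlier at 1 of 8 genes where 7.5% of all genes were, and later at 2 where 14.5% were. Among the 10 maternal and paternal pronuclei with the same number, Mcm6 was copied in the maternal one alone in 2 and in the paternal one alone in 1, Mcm2 in 0 and 3, and Mcm4 in 1 and 2. All 3 pairs of intervals overlap, and groups of 17 and 20 leave wide intervals. In the study's methods, pronuclei whose allelic read ratio had the sign of the other parent were exchanged, and whether the labels used here include this is not given in the sources used here. Mcm7 was the latest member in both, with RT of 0.222 and 0.304. The maternal and paternal genomes also differ in strain, so that parent and strain cannot be told apart. Of the 62 other genes, 1 was earlier in maternal pronuclei (Mcmbp, which binds MCM subunits, 0.262) and 8 later, the most Orc3 of the origin recognition complex (−0.381).

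The 3 treated 2-cell groups share the 54 control cells, so their differences are given side by side and not set against each other. With α-amanitin, Mcm7 was later (−0.200), 1 of 8 where 7.92% of all genes were, and 0 were earlier where 1.94% were. The difference lies at the threshold and was −0.177 with scores of 20 to 80%, −0.150 over the bins within 0.3 Mb and −0.172 with raw shares. Mcm7 was copied in 6 of 42 treated cells (14.3%, 5.4 to 28.5%) and 17 of 54 control cells (31.5%, 19.5 to 45.6%), and the intervals overlap. Of the 13 treated cells with a score of 60 to 90% 3 had copied it, against 7 of 12 control cells. Its RT of 0.142 is the lowest of any member in any group, and was 0.178 as a mean over the 13 bins within 0.3 Mb. Mcm3 (0.153) and Mcm6 (0.15) were higher than in the control, and the median over the members was −0.00142, against −0.0444 over all genes.

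With DRB, Mcm3 was earlier (0.301), 1 of 8 where 5.23% of all genes were, and 0 were later where 1.08% were. It was copied in 44 of 67 treated cells (65.7%, 53.1 to 76.8%) against 15 of 54 (27.8%, 16.5 to 41.6%), which do not overlap. Its difference exceeded that of 99.8% of all genes. With Kdm5b, Mcm3 was earlier (0.232) as well, 1 of 8 where 1.58% of all genes were, and 0 were later where 1.39% were. The difference was 0.198 over all deposited cells and 0.163 over the bins within 0.3 Mb. Mcm3 was copied in 30 of 56 cells (53.6%, 39.7 to 67%), and this interval overlaps that of the control. Its RT was 0.301 in the control and 0.454, 0.601 and 0.533 with α-amanitin, DRB and Kdm5b. Since the control value is the lowest Mcm3 value of all 14 groups and enters each of these differences, they are not independent.

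Mcm4 had RT of 0.309 in control 2-cell embryos, the lowest of its 14 values too, and 0.420, 0.440 and 0.464 with α-amanitin, DRB and Kdm5b. Pcna remained early in all 3 treated groups, at 0.689, 0.772 and 0.681, and Rif1 at 0.611, 0.720 and 0.681. The latest member was Mcm7 in each treated group. Of the 62 other replication genes, 1 was earlier (Prim2, the large primase subunit, 0.217) and 9 later with α-amanitin, the most Tipin of the fork protection complex (−0.303). With DRB 2 were earlier, the most topoisomerase gene Top2a (0.235), and 1 later, Cdt1 (−0.235). With Kdm5b 2 were earlier, the most Pold2 (0.214), and 1 later, Cdt1 (−0.232). Over all genes the shares earlier and later were 1.94 and 7.92% with α-amanitin, 5.23 and 1.08% with DRB, and 1.58 and 1.39% with Kdm5b.

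The bins within 0.3 Mb of each gene mostly shared its state. In 72.4% of all 5276 combinations of a cell and a gene, every called bin of this window had the same state, from 69.3% for Mcm3 to 76.4% for Mcm7. The authors' running median over 15 bins spans 750 kb, which is wider than this window, so part of this sharing comes from the processing. Across the window RT still changed with position. In 2-cell embryos it ran from 0.206 to 0.541 around Mcm4, lowest at −156 kb and highest at 244 kb from the centre of the gene. In 4-cell embryos the same window ran from 0.507 to 0.813. Around Mcm7 the window was flat in 2-cell embryos (0.283 to 0.376) and with α-amanitin (0.142 to 0.212). Around Mcm3 in morulae RT ran from 0.441 to 0.783, lowest at −287 kb and highest at 163 kb from the centre of the gene, with the gene at 0.685.

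**Figure D5:**
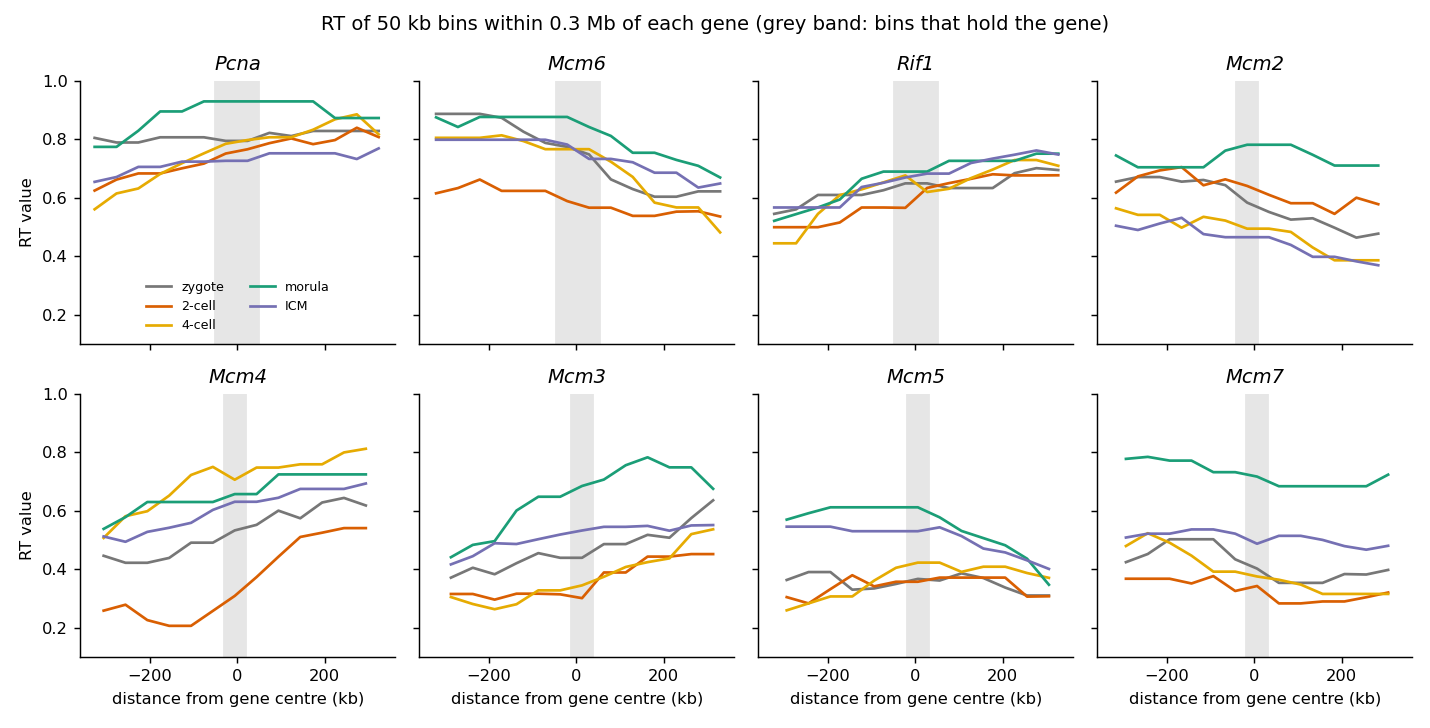
RT (vertical axis) of the 50 kb bins within 0.3 Mb of each gene against their distance from the centre of the gene in kb (horizontal axis), at 5 stages (lines). The grey band marks the bins that hold the gene. Around Mcm4 the line of 2-cell embryos lies below those of the other stages throughout, and around Mcm2 the ICM line lies lowest over most of the window.

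Genes with the most similar course of RT over the 14 groups lay on other chromosomes by rule. The closest was Gtse1 for Mcm7, with a mean absolute difference of 0.0295, followed by Hibadh for Rif1 (0.0354), Ccdc60 for Mcm2 (0.0362), Ttc27 for Pcna (0.0385), Zfp777 for Mcm5 (0.0430), Pqlc1 for Mcm3 (0.0433), Col9a2 for Mcm4 (0.0453) and Adal for Mcm6 (0.0580). Between members the smallest such differences were 0.0849 for Pcna and Mcm6 and 0.0875 for Mcm5 and Mcm7. Each of these 2 values is smaller than the median difference to all genes on other chromosomes, 0.181 for Pcna and 0.173 for Mcm5, but larger than that to the closest gene. They are the smallest of 28 pairs. The largest was 0.370, for Mcm7 and Pcna, above the medians of 0.223 for Mcm7 and 0.181 for Pcna.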

How the data were processed

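The deposited values are neither read numbers nor levels but binary states that the authors assigned: 1 (replicated), 0 (not replicated) or missing for each bin and cell. By the authors' account, reads were aligned to mm10 with Bowtie2 2.3.5, filtered with SAMtools 1.9 (properly paired, without duplicates, mapping quality of at least 20) and counted in 50 kb bins with bedtools 2.29.0. The authors then scaled each bin by its mean over the stage, smoothed with a running median over 15 bins, segmented with copynumber 1.28.0 and assigned 2 states with mixtools 1.2.0, so that a state reflects a domain more than its bin. Of 1016 labelled samples, 733 have states, 714 of these had scores of 10 to 90%, and 661 were used. Cells under 750000 reads or with unbalanced chromosomes in the authors' quality table were left out, while for paternal pronuclei, treated embryos and the later ICM cells no such table was used. Read depth is not part of the states. No cell has states identical to those of another.

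A gene counted as replicated when at least 0.5 of its called bins were. Positions come from GENCODE vM21, without 54 entries whose symbol occurs more than once. Computation ran in SciPy 1.17.1, pandas 2.3.3, Matplotlib 3.10.9 and NumPy 2.4.6 under Python 3.11.15, and the steps were tested on simulated data. The members and lists were chosen with earlier results of these data known. Named genes are the 8 members, the gene of largest difference in each direction among the other replication genes, and the closest gene in RT.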

Additional observations from a re-analysis of the deposited data

How the results depend on the processing

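Pcna, Mcm6 and Rif1 were the 3 genes with RT of 0.5 or more at all 7 stages under each alternative run: all 714 deposited cells, no cells of 72 and 77 h, scores of 20 to 80%, a mean over all bins within 0.3 Mb, ICM cells of 96 to 100 h alone, and raw shares. The median difference from 2-cell embryos to morulae lay between 0.215 and 0.331. The median over the members has no error of its own here. It changed sign from 2-cell to 4-cell embryos (−0.013 with raw shares), from 16-cell embryos to morulae (−0.042 without the cells of 72 and 77 h) and with α-amanitin (up to 0.0152), and from 8-cell to 16-cell embryos it ran from 0.0742 to 0.220. Of 472 recomputed differences of single genes, 2 moved by more than the counting error of the shares, both of Pcna without the cells of 72 and 77 h (0.288 from 8-cell to 16-cell and −0.043 from 16-cell embryos to morulae).

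Counts of 1 to 3 members depended on the threshold of 0.2. The shares over all genes given above belong to the main run, and none are given for the alternatives. From 8-cell to 16-cell embryos 1 member was earlier, but 0 over all deposited cells, 0 over the bins within 0.3 Mb, 5 without the cells of 72 and 77 h, 2 with scores of 20 to 80%, and 3 with raw shares or a threshold of 0.15. From 4-cell to 8-cell embryos no member was called, but 2 were earlier with raw shares, 1 later with scores of 20 to 80%, and 1 in each direction without the cells of 72 h or at 0.15. From 2-cell to 4-cell embryos 2 in place of 1 were earlier with scores of 20 to 80% or at 0.15. The single member called fell to 0 for Mcm7 with α-amanitin over the bins within 0.3 Mb, with scores of 20 to 80% or with raw shares, and for Mcm3 with Kdm5b over all deposited cells or over the bins within 0.3 Mb. The later call of Mcm4 from zygotes to 2-cell embryos was lost over the bins within 0.3 Mb, while 2 were later with raw shares, and that of Pcna in IVF zygotes was lost with raw shares. Mcm6 in pronuclei was no longer earlier with scores of 20 to 80%. Pcna was no longer later in the ICM over the bins within 0.3 Mb (−0.159), in ICM cells of 96 to 100 h alone (−0.100) or with raw shares (−0.197). At 0.15, 2 members in place of 1 were later in 2-cell embryos than in zygotes and in IVF zygotes, 3 were later in parthenotes, and 2 were earlier with DRB and with Kdm5b. The calls from zygotes to 2-cell and from 8-cell to 16-cell embryos, in IVF zygotes, with α-amanitin and with Kdm5b were lost at 0.25. At a threshold of 0.25, 1 member (Mcm2) was later in the ICM than in morulae in place of 3. The 5 members earlier in morulae than in 2-cell embryos were 5 or 6 in each alternative. No paired analysis of pronuclei was made, since no source says that a shared number marks 1 zygote. Counts for pronuclei with the same number stand beside their result.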
